A study of Mus musculus with 18 samples.

Results

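Collagen genes were followed across all 18 arrays of a study of the perinatal mouse lung. The members are the probe sets whose only gene symbol is a collagen name, Col with a number, an a and a number, and they were chosen by name and not by their values. This rule found 46 of the 35556 probe sets on the array, which stand for 44 of the 19938 genes that a probe set names alone. By class 11 genes are fibrillar, 8 belong to the basement membrane (Col4a1 to Col4a6, Col15a1 and Col18a1) and 25 are others. Col6a5 and Col6a6 have 2 probe sets each, and the brighter of the 2 stands for the gene below. All 44 genes were tested in every comparison. The weaker Col6a5 probe set did not pass the filter on low values of the Scap arrays, which leaves 45 of the 46 probe sets there.

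Collagens are secreted proteins in which 3 chains wind around each other as a triple helix. Fibrillar collagens are trimmed outside the cell and cross-linked into the fibrils that carry tension in the lung, while type IV chains form a sheet-like network in the basement membranes on which epithelium and endothelium rest. The other classes coat fibrils, form beaded filaments, build short chain networks, anchor basement membranes or span the cell membrane. In the lung most fibrillar collagen is made by fibroblasts and smooth muscle cells, and the basement membrane receives chains from epithelium, endothelium and mesenchyme. The chains of one trimer come from separate genes, so that Col1a1 with Col1a2, Col4a1 with Col4a2 and Col6a1 with Col6a2 and Col6a3 have to be made together.

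There were 6 groups of 3 lungs. ScapΔ/Δ lungs and their Scap controls were taken at E18.5 and at PN1, the day of birth, and Insig1/2Δ/Δ lungs and their Insig controls at E17.5. ScapΔ/Δ mice carry 2 floxed Scap alleles with SP-C-rtTA and (tetO)7CMV-Cre, with which doxycycline given to the dam deletes Scap in the respiratory epithelium. Controls were floxed littermates without rtTA or without Cre. In Insig1/2Δ/Δ mice the same transgenes delete floxed Insig1 in mice that lack Insig2 in every cell, and their controls, floxed littermates without rtTA or Cre, lack Insig2 as well. SCAP brings the SREBP transcription factors to the place where they are activated, and INSIG1 and INSIG2 hold it back, so the first model lowers and the second raises SREBP activity in the epithelium. Deletion of floxed Scap or Insig1 is confined to epithelium and was reported as incomplete. It leaves that gene intact in the mesenchymal cells that make most collagen, while Insig2 is missing there in the whole Insig line. RNA came from whole lung, in which fewer cells of a type and less RNA per cell cannot be told apart.

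The deleted genes were low in the libraries labelled as deleted. Scap read 9.71 to 9.75 in the E18.5 controls and 9.47, 9.25 and 9.22 on KO10, KO11 and KO12, and at PN1 it read 9.76 to 9.92 in controls and 9.53 to 9.65 in the ScapΔ/Δ lungs. Insig1 read at least 9.29 in the Insig controls and 8.58, 8.28 and 8.21 on KO22, KO23 and KO24. The 2 ScapΔ/Δ arrays KO17 and KO18 at PN1 stood apart from all others. They correlated with each other at r = 0.9944 over probe sets but with the other 16 arrays at 0.9312 to 0.9599, against 0.9729 to 0.9975 among those 16. Their median value was 7.67 and 7.70 against 7.42 to 7.50 on the others, and the SD of their values was 2.08 against 2.23 to 2.3. For the collagens and the genes that process them, comparisons with the ScapΔ/Δ lungs of PN1 are given with and without them, as fitted differences or as values by array. Markers of lung tissue as a list were at a mean of 11.89 to 12.15 on every array.

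Promoter sequence is shown for the chains whose values moved together or apart on the arrays, from the RefSeq table of 300 bases (250 before and 50 after a transcript's start) on GRCm38.p6. The table held windows for 35 of the 44 collagen genes, with no entry for Col1a1, Col4a3, Col12a1 and Col14a1 among others. Windows were searched on both strands for the letters TATAAA of the TATA box, CCAAT of the CCAAT box, GGGCGG of the GC box, and TCACNCCAC of the sterol element core, the kind of sequence that SREBP binds. No 2 kinds of match overlapped in a collagen window. The GC box was found for 22 of the 35 genes (62.9%) against 35.7% of all 32851 windows, the CCAAT box for 13 (37.1% against 37.4%), the TATA box for 5 (14.3% against 13.6%) and the sterol core for 2, Col11a2 and Col17a1 (5.71% against 1.24%). A gene with 2 windows counts where either holds a match. A match is a description of letters and not a binding site. The 250 bases before the starts of Col1a2 (window chr6:4505368-4505667, + strand), Col6a1 (chr10:76725995-76726294, - strand) and Col6a3 (chr1:90843922-90844221, - strand) read as follows, 5′ to 3′ on the gene's strand, with capitals for matches to the searched letters.
Col1a2: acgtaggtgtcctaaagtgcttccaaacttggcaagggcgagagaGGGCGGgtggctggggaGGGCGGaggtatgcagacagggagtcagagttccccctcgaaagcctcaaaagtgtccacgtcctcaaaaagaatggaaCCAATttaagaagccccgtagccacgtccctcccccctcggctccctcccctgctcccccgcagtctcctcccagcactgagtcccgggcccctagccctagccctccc
Col6a1: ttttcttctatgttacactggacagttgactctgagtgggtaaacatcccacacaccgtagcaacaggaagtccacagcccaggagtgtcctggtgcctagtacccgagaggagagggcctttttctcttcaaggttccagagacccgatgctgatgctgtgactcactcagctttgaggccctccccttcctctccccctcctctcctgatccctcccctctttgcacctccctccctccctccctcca
Col6a3: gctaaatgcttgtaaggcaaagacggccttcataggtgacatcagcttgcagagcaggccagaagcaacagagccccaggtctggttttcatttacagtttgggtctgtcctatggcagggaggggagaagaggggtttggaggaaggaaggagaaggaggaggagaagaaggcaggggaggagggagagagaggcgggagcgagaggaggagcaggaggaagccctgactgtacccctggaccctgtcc
The Col1a2 stretch holds 2 GC boxes and 1 CCAAT box, and its second CCAAT match, on the other strand, begins at the start itself, beyond the bases shown. Neither type VI stretch holds any of the searched letters. Col4a1 and Col4a2 lie head to head on chromosome 8 and run in opposite directions. Their tabled starts, at 11312826 and 11312805, are 21 bases apart. The 2 transcripts therefore share the 22 bases from chr8:11312805-11312826, printed on the strand of Col4a2. All of them are in lower case here, although they hold 1 GC box, GGGCGG, from base 8. It is a match in the windows of both genes.
Col4a1 and Col4a2: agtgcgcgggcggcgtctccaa
Col4a5 and Col4a6 are also neighbours in opposite directions, on the X chromosome with 1343 bases between their starts.

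Values are the deposited log2 expression of each probe set. They are not per length, so the level of one gene is not set against that of another, and a difference of 1 on this scale is a doubling. Over the 18 arrays the collagen probe sets had means from 6.54 to 11.29, and 7 of the 46 lay below the median of their array on all 18 arrays. The 10 genes with a mean of 9 or more, a limit chosen after the values were seen, were Col1a1, Col1a2, Col3a1, Col4a1, Col4a2, Col6a1, Col6a2, Col6a3, Col14a1 and Col18a1. For 17 of the 44 genes the 6 group means spanned over 0.5. The widest span was that of Col12a1, 1.41, followed by Col6a3 at 1.09 and Col14a1 at 1.07.

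**Figure D1:**
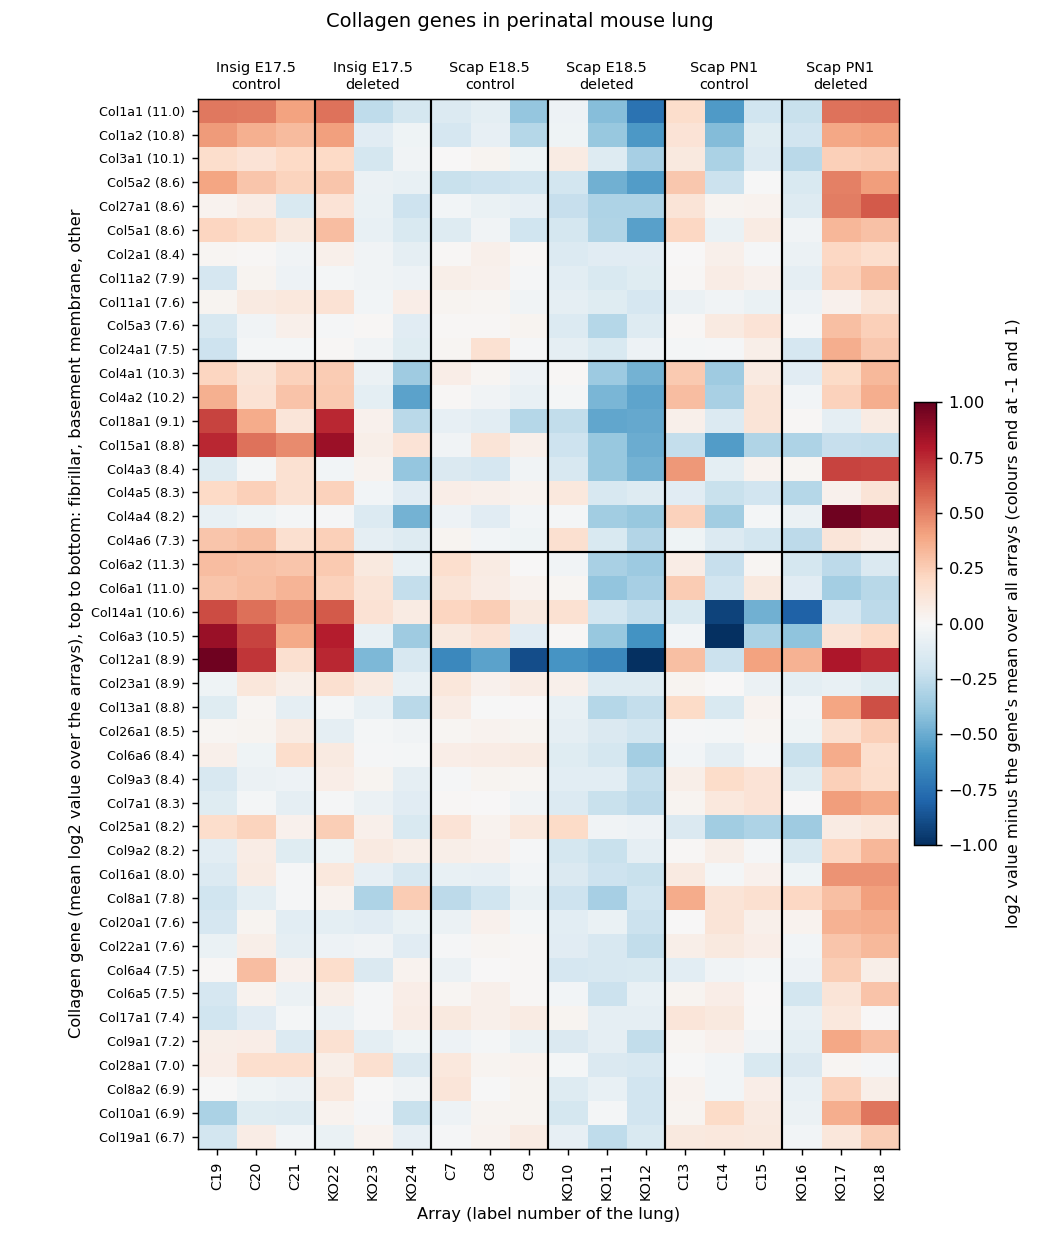
Log2 value minus the gene's mean over all 18 arrays (colour), for the 44 collagen genes (rows, by class and then by mean, which is given in brackets) on the 18 arrays (columns, by group). KO17 and KO18 are red for most genes, KO11 and KO12 are blue for nearly all, and KO10, KO16 and KO22 resemble the controls of their age more than the other deleted lungs beside them.

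Among the fibrillar collagens Col1a1 and Col1a2 (chr11:94936224-94953042 and chr6:4505618-4541543, GRCm38.p6 as are all positions here) encode the 2 chains of type I collagen, the main fibril of the lung interstitium. At E17.5 Col1a1 read 11.51, 11.50 and 11.38 in the Insig controls and 11.52, 10.73 and 10.80 in the Insig1/2Δ/Δ lungs. At E18.5 Col1a1 read 10.84, 10.88 and 10.59 in the Scap controls and 10.93, 10.56 and 10.24 in the ScapΔ/Δ lungs. At PN1 Col1a1 read 11.16, 10.41 and 10.78 in the Scap controls and 10.76, 11.53 and 11.53 in the ScapΔ/Δ lungs. The order within each group is that of the array labels, so KO22 was with the Insig controls while KO23 and KO24 were lower, and KO17 and KO18 were above every other lung of the Scap line. Col1a2 was high and low on the same arrays. At E17.5 Col1a2 read 11.25, 11.18 and 11.14 in the Insig controls and 11.23, 10.71 and 10.78 in the Insig1/2Δ/Δ lungs. At E18.5 Col1a2 read 10.65, 10.74 and 10.54 in the Scap controls and 10.78, 10.44 and 10.25 in the ScapΔ/Δ lungs. At PN1 Col1a2 read 10.96, 10.39 and 10.70 in the Scap controls and 10.63, 11.21 and 11.22 in the ScapΔ/Δ lungs. Groups overlapped in all 3 comparisons for both genes. Col3a1, whose product co-assembles with type I fibrils in distensible tissue, varied less, with group means from 9.99 to 10.29. At E17.5 Col3a1 read 10.29, 10.26 and 10.32 in the Insig controls and 10.32, 9.95 and 10.09 in the Insig1/2Δ/Δ lungs. At E18.5 Col3a1 read 10.13, 10.14 and 10.08 in the Scap controls and 10.20, 9.99 and 9.79 in the ScapΔ/Δ lungs. At PN1 Col3a1 read 10.21, 9.80 and 9.98 in the Scap controls and 9.85, 10.36 and 10.37 in the ScapΔ/Δ lungs. Col5a1 and Col5a2 encode type V chains, which start fibrils and limit their width. At E17.5 Col5a1 read 8.81, 8.78 and 8.69 in the Insig controls and 8.90, 8.52 and 8.44 in the Insig1/2Δ/Δ lungs. At E18.5 Col5a1 read 8.46, 8.56 and 8.39 in the Scap controls and 8.42, 8.29 and 8.05 in the ScapΔ/Δ lungs. At PN1 Col5a1 read 8.80, 8.53 and 8.67 in the Scap controls and 8.56, 8.92 and 8.89 in the ScapΔ/Δ lungs. KO12 held the lowest Col5a1 value and KO17 the highest. At E17.5 Col5a2 read 9.04, 8.92 and 8.87 in the Insig controls and 8.93, 8.59 and 8.57 in the Insig1/2Δ/Δ lungs. At E18.5 Col5a2 read 8.42, 8.44 and 8.45 in the Scap controls and 8.46, 8.16 and 8.09 in the ScapΔ/Δ lungs. At PN1 Col5a2 read 8.91, 8.43 and 8.64 in the Scap controls and 8.49, 9.15 and 9.06 in the ScapΔ/Δ lungs. The 3 Scap controls of E18.5 lay close together for Col5a2, and KO10 lay above all of them.

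Col2a1 and Col11a1 are fibril collagens of cartilage, which in a whole lung can come with the airway rings. Col2a1 had group means from 8.27 to 8.49 and Col11a1 from 7.50 to 7.70. At E18.5 Col2a1 read 8.40, 8.44 and 8.39 in the Scap controls and 8.25, 8.27 and 8.27 in the ScapΔ/Δ lungs. At PN1 Col2a1 read 8.39, 8.44 and 8.38 in the Scap controls and 8.33, 8.59 and 8.56 in the ScapΔ/Δ lungs. At E18.5 Col11a1 read 7.65, 7.64 and 7.59 in the Scap controls and 7.54, 7.50 and 7.45 in the ScapΔ/Δ lungs. The ScapΔ/Δ lungs of E18.5 lay below all controls for both. At PN1 Col11a1 read 7.57, 7.58 and 7.56 in the Scap controls and 7.57, 7.67 and 7.75 in the ScapΔ/Δ lungs. At E17.5 Col2a1 read 8.40, 8.40 and 8.35 in the Insig controls and 8.43, 8.35 and 8.29 in the Insig1/2Δ/Δ lungs. At E17.5 Col11a1 read 7.65, 7.72 and 7.72 in the Insig controls and 7.77, 7.59 and 7.69 in the Insig1/2Δ/Δ lungs. At PN1 and at E17.5 the groups overlapped for both genes. The cartilage marker list, with 15 genes, was at a mean of 7.26 to 7.66 on all arrays, and was lowest on KO17 and KO18. The remaining fibrillar genes are Col5a3, Col11a2, Col24a1 and Col27a1, and Col27a1 had the widest span of group means among them, from 8.35 ± 0.046 (SD, n = 3) in ScapΔ/Δ lungs at E18.5 to 8.96 ± 0.4 at PN1. At E18.5 Col27a1 read 8.60, 8.57 and 8.55 in the Scap controls and 8.40, 8.32 and 8.32 in the ScapΔ/Δ lungs. At PN1 Col27a1 read 8.75, 8.66 and 8.67 in the Scap controls and 8.50, 9.14 and 9.24 in the ScapΔ/Δ lungs. Its product forms thin fibrils in cartilage and in developing epithelia, and KO17 and KO18 were its highest arrays. At E18.5 Col5a3 read 7.57, 7.57 and 7.59 in the Scap controls and 7.43, 7.27 and 7.43 in the ScapΔ/Δ lungs. Col5a3 is the least widespread of the type V chains, and its E18.5 groups did not overlap either.

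In the basement membrane Col4a1 and Col4a2 make the chains of the network found in nearly every basement membrane. At E17.5 Col4a1 read 10.50, 10.41 and 10.51 in the Insig controls and 10.54, 10.22 and 9.93 in the Insig1/2Δ/Δ lungs. At E18.5 Col4a1 read 10.35, 10.30 and 10.23 in the Scap controls and 10.29, 9.92 and 9.81 in the ScapΔ/Δ lungs. At PN1 Col4a1 read 10.55, 9.93 and 10.37 in the Scap controls and 10.17, 10.48 and 10.61 in the ScapΔ/Δ lungs. C14, a control of PN1, was as low as KO11, and the spread of the PN1 controls was wider than that of the E18.5 controls. At E17.5 Col4a2 read 10.59, 10.37 and 10.51 in the Insig controls and 10.49, 10.13 and 9.70 in the Insig1/2Δ/Δ lungs. At E18.5 Col4a2 read 10.24, 10.20 and 10.16 in the Scap controls and 10.21, 9.77 and 9.70 in the ScapΔ/Δ lungs. At PN1 Col4a2 read 10.54, 9.90 and 10.35 in the Scap controls and 10.20, 10.46 and 10.59 in the ScapΔ/Δ lungs. Col4a3 (chr1:82586921-82722059) and Col4a4 (chr1:82448419-82587034), neighbours in opposite directions on chromosome 1, join with Col4a5 in a network that is typical of alveolar and glomerular basement membranes. At E17.5 Col4a3 read 8.27, 8.38 and 8.55 in the Insig controls and 8.37, 8.44 and 8.01 in the Insig1/2Δ/Δ lungs. At E18.5 Col4a3 read 8.25, 8.23 and 8.37 in the Scap controls and 8.24, 8.02 and 7.92 in the ScapΔ/Δ lungs. At PN1 Col4a3 read 8.83, 8.30 and 8.43 in the Scap controls and 8.42, 9.07 and 9.07 in the ScapΔ/Δ lungs. Only KO17 and KO18 reached 9 on this scale. At E17.5 Col4a4 read 8.17, 8.20 and 8.22 in the Insig controls and 8.23, 8.11 and 7.77 in the Insig1/2Δ/Δ lungs. At E18.5 Col4a4 read 8.19, 8.12 and 8.21 in the Scap controls and 8.22, 7.90 and 7.86 in the ScapΔ/Δ lungs. At PN1 Col4a4 read 8.47, 7.90 and 8.22 in the Scap controls and 8.19, 9.21 and 9.16 in the ScapΔ/Δ lungs. For Col4a4 KO17 and KO18 exceeded the highest of the other 16 arrays, C13, while KO16 was at the level of C15. At E17.5 Col4a5 read 8.46, 8.51 and 8.42 in the Insig controls and 8.50, 8.24 and 8.15 in the Insig1/2Δ/Δ lungs. At E18.5 Col4a5 read 8.34, 8.32 and 8.30 in the Scap controls and 8.37, 8.11 and 8.14 in the ScapΔ/Δ lungs. At PN1 Col4a5 read 8.15, 8.05 and 8.08 in the Scap controls and 7.99, 8.31 and 8.40 in the ScapΔ/Δ lungs. Col4a6, which pairs with Col4a5 in smooth muscle and airway basement membranes, followed the same arrays at a lower level of its own probe set. At E17.5 Col4a6 read 7.59, 7.61 and 7.47 in the Insig controls and 7.55, 7.22 and 7.18 in the Insig1/2Δ/Δ lungs. At E18.5 Col4a6 read 7.34, 7.29 and 7.27 in the Scap controls and 7.47, 7.16 and 7.02 in the ScapΔ/Δ lungs. At PN1 Col4a6 read 7.27, 7.18 and 7.13 in the Scap controls and 7.05, 7.43 and 7.39 in the ScapΔ/Δ lungs. KO10 had the highest Col4a6 value of the Scap line.

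Col15a1 (chr4:47207655-47313167) and Col18a1 encode relatives of each other that sit in the basement membrane zone, and a fragment of COL18A1 is endostatin. At E17.5 Col15a1 read 9.51, 9.30 and 9.23 in the Insig controls and 9.61, 8.82 and 8.89 in the Insig1/2Δ/Δ lungs. At E18.5 Col15a1 read 8.72, 8.88 and 8.81 in the Scap controls and 8.55, 8.37 and 8.26 in the ScapΔ/Δ lungs. At PN1 Col15a1 read 8.51, 8.19 and 8.45 in the Scap controls and 8.44, 8.53 and 8.52 in the ScapΔ/Δ lungs. Col15a1 was the basement membrane gene whose E18.5 groups did not overlap, and all PN1 lungs were below all E18.5 controls. At E17.5 Col18a1 read 9.81, 9.51 and 9.26 in the Insig controls and 9.89, 9.18 and 8.87 in the Insig1/2Δ/Δ lungs. At E18.5 Col18a1 read 9.05, 9.03 and 8.85 in the Scap controls and 8.89, 8.62 and 8.63 in the ScapΔ/Δ lungs. At PN1 Col18a1 read 9.19, 9.003 and 9.27 in the Scap controls and 9.15, 9.05 and 9.22 in the ScapΔ/Δ lungs. At E18.5 KO10 lay between C9 and C8 for Col18a1, so those groups overlapped.

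Type VI collagen (Col6a1 at chr10:76708792-76726044, Col6a2 at chr10:76595756-76623630, Col6a3 at chr1:90766860-90844001) forms beaded filaments next to cells, built from COL6A1 and COL6A2 with COL6A3 or a related chain. At E17.5 Col6a1 read 11.25, 11.28 and 11.31 in the Insig controls and 11.21, 11.10 and 10.73 in the Insig1/2Δ/Δ lungs. At E18.5 Col6a1 read 11.10, 11.04 and 11.01 in the Scap controls and 10.99, 10.57 and 10.64 in the ScapΔ/Δ lungs. At PN1 Col6a1 read 11.23, 10.78 and 11.07 in the Scap controls and 10.86, 10.63 and 10.70 in the ScapΔ/Δ lungs. KO17 and KO18, high for most collagens, were here below all 3 PN1 controls. At E17.5 Col6a2 read 11.60, 11.58 and 11.56 in the Insig controls and 11.55, 11.39 and 11.21 in the Insig1/2Δ/Δ lungs. At E18.5 Col6a2 read 11.45, 11.37 and 11.29 in the Scap controls and 11.26, 10.97 and 10.93 in the ScapΔ/Δ lungs. At PN1 Col6a2 read 11.36, 11.06 and 11.31 in the Scap controls and 11.12, 11.03 and 11.14 in the ScapΔ/Δ lungs. For Col6a2 KO17 was the lowest lung of PN1, while KO18 lay between the controls. At E17.5 Col6a3 read 11.39, 11.20 and 10.91 in the Insig controls and 11.31, 10.45 and 10.17 in the Insig1/2Δ/Δ lungs. At E18.5 Col6a3 read 10.63, 10.67 and 10.41 in the Scap controls and 10.54, 10.15 and 9.93 in the ScapΔ/Δ lungs. At PN1 Col6a3 read 10.50, 9.53 and 10.21 in the Scap controls and 10.13, 10.66 and 10.73 in the ScapΔ/Δ lungs. For Col6a3 KO17 and KO18 were instead above all 3 controls, and C14 was the lowest lung of the whole series. Col6a6 encodes a chain that can take the place of COL6A3. At E18.5 Col6a6 read 8.48, 8.49 and 8.50 in the Scap controls and 8.29, 8.24 and 8.08 in the ScapΔ/Δ lungs. The 2 groups did not overlap. On its weaker probe set, below the array median on all 18 arrays, they did. That probe set read 7.09, 7.08 and 6.94 in the Scap controls and 7.11, 7.13 and 6.87 in the ScapΔ/Δ lungs.

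Col12a1 (chr9:79598987-79721141) and Col14a1 (chr15:55307644-55520803) coat fibrils, and their products are relatives with interrupted triple helices. At E17.5 Col12a1 read 9.89, 9.63 and 9.08 in the Insig controls and 9.67, 8.47 and 8.76 in the Insig1/2Δ/Δ lungs. At E18.5 Col12a1 read 8.27, 8.38 and 8.03 in the Scap controls and 8.33, 8.27 and 7.83 in the ScapΔ/Δ lungs. At PN1 Col12a1 read 9.22, 8.70 and 9.32 in the Scap controls and 9.26, 9.73 and 9.66 in the ScapΔ/Δ lungs. Every lung of PN1 was above every E18.5 lung for Col12a1. At E17.5 Col14a1 read 11.22, 11.12 and 11.03 in the Insig controls and 11.18, 10.71 and 10.65 in the Insig1/2Δ/Δ lungs. At E18.5 Col14a1 read 10.78, 10.81 and 10.66 in the Scap controls and 10.72, 10.38 and 10.33 in the ScapΔ/Δ lungs. At PN1 Col14a1 read 10.41, 9.64 and 10.09 in the Scap controls and 9.76, 10.40 and 10.31 in the ScapΔ/Δ lungs. Col14a1 went the other way, with all PN1 controls below all E18.5 controls. Col13a1 and Col17a1 span the cell membrane, and COL17A1 holds epithelial cells in hemidesmosomes. At E18.5 Col13a1 read 8.90, 8.82 and 8.83 in the Scap controls and 8.75, 8.54 and 8.59 in the ScapΔ/Δ lungs. At PN1 Col13a1 read 9.02, 8.67 and 8.86 in the Scap controls and 8.80, 9.22 and 9.47 in the ScapΔ/Δ lungs. At E17.5 Col13a1 read 8.71, 8.85 and 8.74 in the Insig controls and 8.81, 8.75 and 8.55 in the Insig1/2Δ/Δ lungs. KO17 and KO18 were again highest for Col13a1. At E18.5 Col17a1 read 7.54, 7.50 and 7.53 in the Scap controls and 7.47, 7.35 and 7.35 in the ScapΔ/Δ lungs. At PN1 Col17a1 read 7.57, 7.54 and 7.44 in the Scap controls and 7.37, 7.55 and 7.45 in the ScapΔ/Δ lungs. At E17.5 Col17a1 read 7.25, 7.33 and 7.42 in the Insig controls and 7.39, 7.43 and 7.52 in the Insig1/2Δ/Δ lungs. Col17a1 varied by 0.32 over all 18 arrays. At E18.5 Col9a1 read 7.17, 7.20 and 7.15 in the Scap controls and 7.07, 7.13 and 6.97 in the ScapΔ/Δ lungs. At PN1 Col9a1 read 7.24, 7.26 and 7.18 in the Scap controls and 7.12, 7.61 and 7.53 in the ScapΔ/Δ lungs. At E17.5 Col9a1 read 7.28, 7.29 and 7.08 in the Insig controls and 7.37, 7.13 and 7.17 in the Insig1/2Δ/Δ lungs. Col9a1 is a partner of type II fibrils in cartilage, and KO17 and KO18 were its highest arrays as well. Its probe set lay below the array median on all 18 arrays, those 2 included. Col8a1 encodes a short chain collagen of vessel walls and Col7a1 the collagen of anchoring fibrils beneath epithelium. At E18.5 Col8a1 read 7.52, 7.58 and 7.71 in the Scap controls and 7.57, 7.45 and 7.58 in the ScapΔ/Δ lungs. At PN1 Col8a1 read 8.15, 7.90 and 7.94 in the Scap controls and 7.99, 8.08 and 8.19 in the ScapΔ/Δ lungs. All 6 PN1 lungs lay above all 6 E18.5 lungs for Col8a1. At E18.5 Col7a1 read 8.32, 8.30 and 8.27 in the Scap controls and 8.17, 8.09 and 8.04 in the ScapΔ/Δ lungs. The ScapΔ/Δ lungs lay below all controls for Col7a1. At PN1 Col23a1 read 8.94, 8.92 and 8.85 in the Scap controls and 8.81, 8.83 and 8.79 in the ScapΔ/Δ lungs. At E17.5 Col26a1 read 8.56, 8.57 and 8.63 in the Insig controls and 8.45, 8.52 and 8.51 in the Insig1/2Δ/Δ lungs. In both of these the deleted lungs lay below the controls by a small margin, for Col23a1, a membrane collagen, and for Col26a1, a collagen first found in the gonads.

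**Figure D2:**
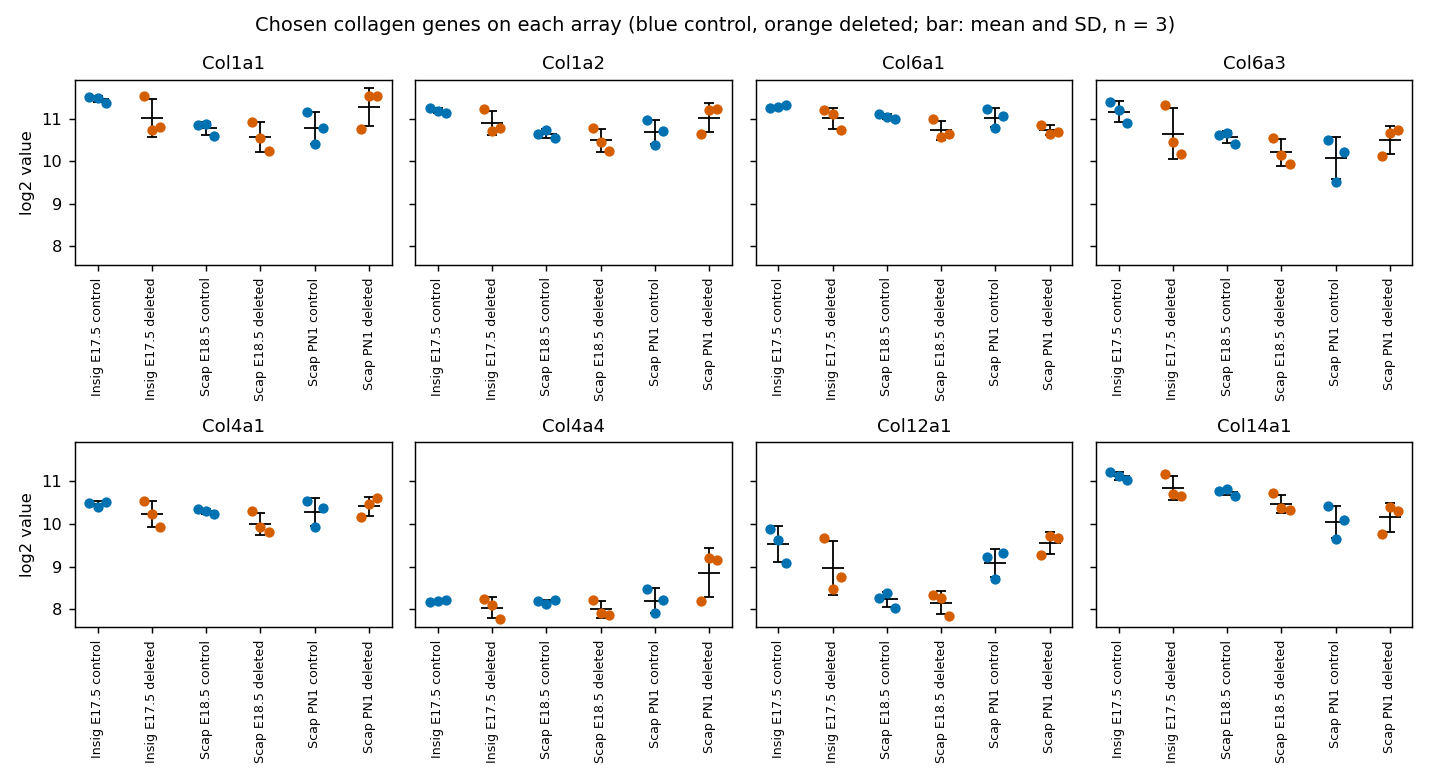
Log2 value (vertical axis) of 8 collagen genes on each array in the 6 groups (horizontal axis, 3 lungs each; blue control, orange deleted; bars give the mean and SD, n = 3). In the PN1 ScapΔ/Δ group 1 lung lies with the controls and 2 lie high for Col1a1, Col1a2 and Col4a4, while Col6a1 is low, and Col12a1 is higher at PN1 than at E18.5 in both genotypes.

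Deletion of Scap before birth was read at E18.5. All 44 collagen genes were lower on average in the ScapΔ/Δ lungs than in controls, by a median of 0.17 on the log2 scale (median difference -0.17), while the median over all 22800 probe sets tested was -0.04, with 13286 of them below 0. No collagen passed the test (limma, adjusted p under 0.05 over all probe sets), and at an unadjusted p under 0.05 there were 6 in limma and 20 in an unmoderated test of the 6 arrays compared, all lower. Here and below, counts at an unadjusted p come without the share of all probe sets at that cut. They are therefore not read as a result about the collagens. In the series 0.00877% of the probe sets were called in this comparison, so nearly no gene passed. In 25 of the 44 genes all 3 ScapΔ/Δ values lay below all 3 control values, against 21% of all probe sets. The probe sets with a mean under 9 had a median of -0.07 and those at 9 or more a median of -0.01. For collagens the medians were -0.16 for the 34 genes under 9 and -0.28 for the 10 genes at 9 or more.

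By class the median difference at E18.5 was -0.16 for fibrillar, -0.24 for basement membrane and -0.16 for other collagens, and the class differences were not tested. Non-overlapping lower values were found for 6 of 11 fibrillar genes, 1 of 8 basement membrane genes and 18 of 25 others. Among the genes without overlap Col15a1 differed most, by -0.41 ± 0.10 (SE, limma adjusted p = 0.511), which is a ratio of 0.753. The type VI genes came next. Col6a2 differed by -0.32 ± 0.11 (adjusted p = 0.511), Col6a1 by -0.32 ± 0.13 (adjusted p = 0.536) and Col6a6 by -0.29 ± 0.13 (adjusted p = 0.541). The weaker Col6a6 probe set did not share this difference, with group means of 7.035 in controls and 7.034 in ScapΔ/Δ lungs. For single genes the exact permutation test of 3 against 3 cannot give a p below 0.1. Col6a3 differed by -0.36, Col4a2 by -0.30 and Col4a1 by -0.29, and in these KO10 kept the groups from separating. Smaller differences without overlap were those of Col27a1, -0.23, Col13a1, -0.23, Col7a1, -0.20, and Col5a3, -0.20. The differences nearest 0 were those of Col25a1, -0.06, and Col8a1, -0.07.

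The lungs differed in how far they departed from controls. Set against the control mean gene by gene, KO10 had a collagen median of -0.08 with 34 of 44 genes below 0, KO11 a median of -0.21 with 43 below, and KO12 a median of -0.25 with all 44 below. For all probe sets the medians were -0.01, -0.04 and -0.05. In the basement membrane class KO10 had a median of 0.00, against -0.32 on KO11 and -0.36 on KO12. KO10 was also the ScapΔ/Δ lung of E18.5 with the highest Scap value. Control lungs set against their own mean had collagen medians from -0.02 to 0.02. Without KO10 the collagen median was -0.21, with 0 called. KO10 was the ScapΔ/Δ lung nearest the controls, so a lower median without it follows from that choice and adds no support. Markers of other cells were read beside the collagens. All 10 endothelial markers were below 0 with a median of -0.17, 8 of 10 smooth muscle and pericyte markers with -0.20, 7 of 10 lung fibroblast markers with -0.08 and 6 of 10 type II markers with -0.16. The fibroblast and type II shares lay near the share of all probe sets below 0 given above. None of these markers passed the test, and their part in the collagen values was not tested.

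**Figure D3:**
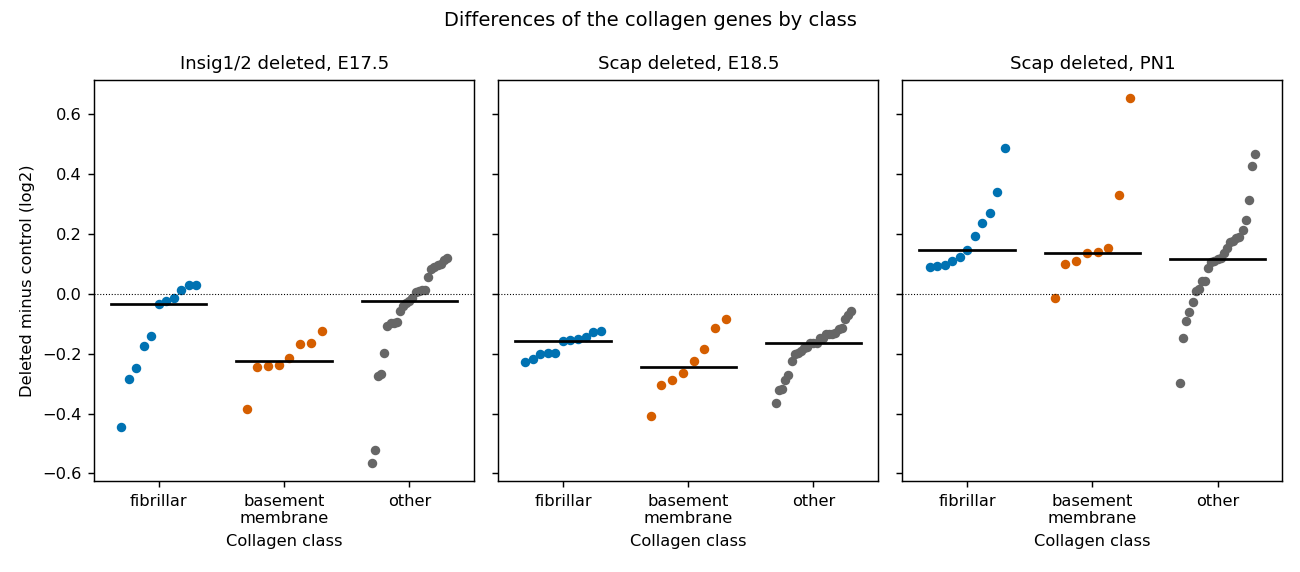
Difference of group means, deleted minus control (log2, vertical axis), for the 44 collagen genes by class (points; black line, class median) in the 3 genotype comparisons. At E18.5 all points lie below 0, at PN1 38 of 44 lie above 0 (22 with arrays centred), and at E17.5 in the Insig line all 8 basement membrane genes lie below 0.

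On the day of birth the sign was the opposite for most genes. At PN1 38 of the 44 collagens were higher on average in ScapΔ/Δ lungs as deposited (32 after quantile normalization and 22 with arrays centred on their medians), with a median difference of 0.13 while the median over all probe sets was -0.06. None passed the test, 2 had an unadjusted p under 0.05 in limma, both higher, 1, lower, had one in an unmoderated test of the 6 arrays compared, and 0.00877% of all probe sets passed. All 11 fibrillar collagens were above 0, with a median of 0.15, 7 of 8 basement membrane genes, with 0.14, and 20 of 25 others, with 0.12. Col4a4 differed by 0.66 ± 0.25 (limma adjusted p = 0.114), a ratio of 1.57. Col1a1 differed by 0.49 ± 0.25 (adjusted p = 0.199), Col12a1 by 0.47 ± 0.20 (adjusted p = 0.135) and Col6a3 by 0.43 ± 0.25 (adjusted p = 0.246). Col1a2 and Col4a3 followed with 0.34 and 0.33. Below 0 were Col6a1 at -0.30 ± 0.13 (adjusted p = 0.155), Col6a2 at -0.15, Col23a1 at -0.09, Col17a1 at -0.06, Col9a3 at -0.03 and Col18a1 at -0.01.

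The groups did not separate. No collagen had all ScapΔ/Δ values above all control values, against 5.59% of all probe sets, and only Col23a1 had all below, against 11%. The 3 lungs were of 2 kinds. KO16 had a collagen median of -0.10 against the control mean with 39 of 44 genes below 0, while KO17 had 0.23 and KO18 0.26, each with 40 genes above 0. Scap itself read 9.54 on KO16, 9.53 on KO17 and 9.65 on KO18. For all probe sets the medians were -0.02, -0.09 and -0.08. Without KO17 and KO18 the collagen median turned to -0.10 with 39 genes below 0 and 0 called, on the assumption that the lone KO16 varies like the other groups. Without KO16 the median was 0.26, and 26 of 45 collagen probe sets passed higher and 1, Col6a1, lower. Among all probe sets 24.1% then passed higher and 37.8% lower, so the share of collagens called higher stood above the background and that called lower below it. In that fit Col4a4 was at 0.99 (adjusted p = 0.000211), Col1a1 at 0.74 (adjusted p = 0.0121), Col12a1 at 0.61 (adjusted p = 0.017) and Col27a1 at 0.50 (adjusted p = 5.8e-05). These values rest on KO17 and KO18, the 2 arrays that stood apart.

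The deposited scale matters for PN1. With each array centred on its own median, the median over all probe sets moved from -0.06 to -0.19 and that of the collagens from 0.13 to -0.0044, with 22 of 44 genes above 0, so that the collagens stayed above the rest of the array while their median lost its sign. Level mattered as well, since the 12542 probe sets with a mean under 9 had a median of 0.02 and the 10258 at 9 or more a median of -0.18. For collagens the median was 0.12 for the 34 genes under 9 and 0.14 for the 10 at 9 or more. Marker lists differed on the same arrays. The type II list was at 12.15 to 12.23 in PN1 controls, 11.93 on KO16, 11.62 on KO17 and 11.57 on KO18, and the lung fibroblast list at 10.70 to 10.79, 10.66, 10.46 and 10.46. The smooth muscle and pericyte list was at 10.46 to 10.72 in controls and 10.63 to 10.73 in ScapΔ/Δ lungs, and the endothelial list at 11.14 to 11.43 and 11.12 to 11.25. Their part in the collagen values was not tested.

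**Figure D4:**
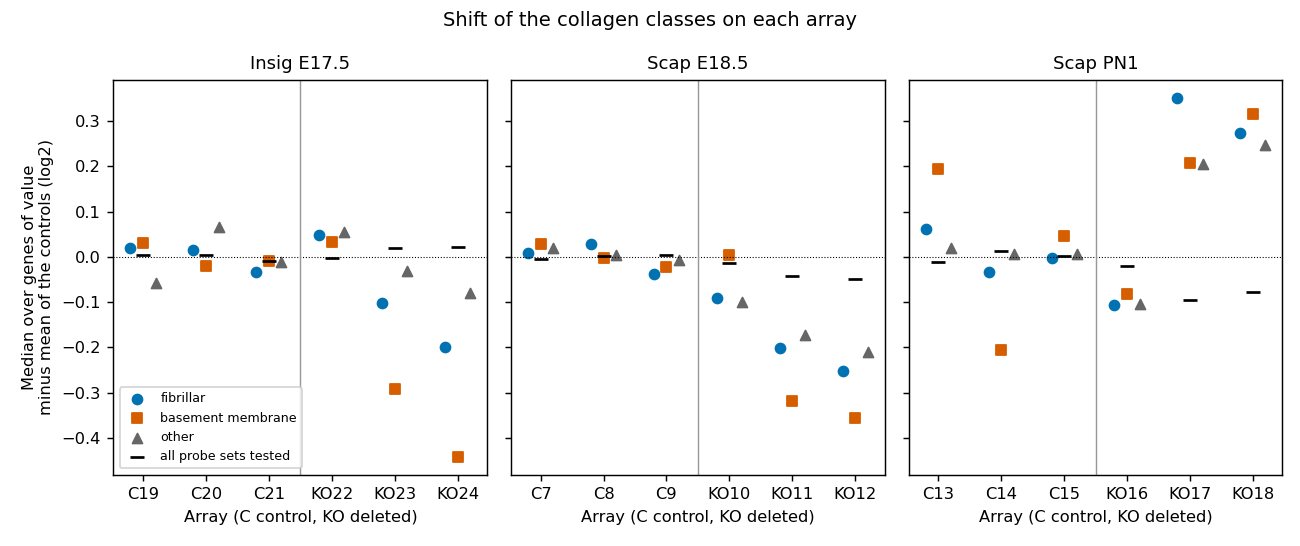
Median over the genes of each collagen class, and over all probe sets tested, of the value minus the mean of the controls of that comparison (log2, vertical axis), for each array (horizontal axis; C control, KO deleted). KO23 and KO24 and KO11 and KO12 lie low with the basement membrane class lowest, KO22 and KO10 lie near the controls, and KO17 and KO18 lie high while KO16 lies slightly below 0.

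Whether the deletion acted differently at the 2 ages was tested as the PN1 difference minus the E18.5 difference. All 44 collagens had a value above 0 (39 after quantile normalization or median centring), with a median of 0.30 against -0.03 over all probe sets, and the class medians were 0.32 for fibrillar, 0.44 for basement membrane and 0.29 for other collagens. None passed the test, 14 had an unadjusted p under 0.05 in limma and 11 in the same contrast without moderation of the spread, all above 0, and 0% of all probe sets passed. Col4a4 had the highest value, 0.84 ± 0.35 (limma adjusted p = 0.265). Col6a3 followed with 0.79, Col1a1 with 0.68, Col4a3 and Col12a1 with 0.55 each, and Col13a1 with 0.54. Col15a1 came next with 0.52 ± 0.15 (limma adjusted p = 0.265), while Col6a1 was at 0.02. Without KO16 33 of 45 probe sets passed, all above 0, against 24.9% of all probe sets, and without KO17 and KO18 none did and the median was 0.08 with 35 of 44 above 0. This comparison uses the same arrays as the 2 before it and adds no samples.

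In the Insig line at E17.5, where SREBP activity is raised, 30 of 44 collagens were lower on average in Insig1/2Δ/Δ lungs. The median difference was -0.08 against 0.01 over all 22775 probe sets. All 8 basement membrane genes were below 0 with a median of -0.23, while the medians of the fibrillar and other classes were -0.03 and -0.02. All 10 genes with a mean of 9 or more were below 0 with a median of -0.27, and 20 of the 34 under 9 with -0.02. None passed the test, none had an unadjusted p under 0.05 in limma, 1, lower, did in the methods' t-test, and 0% of all probe sets were called. The largest differences were those of Col12a1, -0.57 ± 0.35 (adjusted p = 0.758), Col6a3, -0.52 ± 0.30 (adjusted p = 0.758), Col1a1, -0.45 ± 0.21 (adjusted p = 0.758), and Col4a2, -0.38 ± 0.20 (adjusted p = 0.758). Groups did not overlap for Col6a1, -0.27, Col6a2, -0.20, and Col26a1, -0.09, all lower, against 4.22% of all probe sets. No collagen had all Insig1/2Δ/Δ values above the controls, against 5.83%.

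Here too 1 lung resembled the controls. KO22 had a collagen median of 0.06 with 34 of 44 genes above 0, KO23 of -0.08 with 29 below, and KO24 of -0.17 with 38 below. The basement membrane medians were 0.03, -0.29 and -0.44. KO22 was also the lung with the highest Insig1 value of its group. Without KO22 the collagen median was -0.12 and that of the basement membrane class -0.38, with 0 called. KO22 had the highest collagen median of its group, so lower medians without it follow from that choice and add no support. Without KO24 the collagen median was -0.02. The type II list was at 11.58 to 12.12 in controls, 11.77 on KO22, 12.14 on KO23 and 11.95 on KO24, and the smooth muscle and pericyte list at 10.43 to 10.56, 10.43, 10.15 and 10.50. The cardiac muscle list, which can come with the great vessels, was at 10.79 on the control C21 and at 8.79 to 9.37 on the other 5 arrays of this comparison. The part of these in the collagen values was not tested.

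Across birth in the Scap controls the collagens split evenly, with 22 genes higher and 22 lower at PN1 than at E18.5 and a median of 0.0011. Only Col12a1 passed the test. It rose by 0.85 ± 0.20 (SE, limma adjusted p = 0.049), a ratio of 1.81, and with 1 of 45 probe sets the share called was near the 1.19% of all probe sets called higher. None passed lower, against 1.39%. Just outside the threshold were Col8a1 at 0.39 ± 0.09 (adjusted p = 0.059), and Col15a1 at -0.42 ± 0.10 (adjusted p = 0.0676). Col14a1 was at -0.70 ± 0.21 (adjusted p = 0.126), Col6a3 at -0.49 with overlapping groups, and the membrane collagen Col25a1 at -0.36. Groups did not overlap for 17 genes, 8 higher, against 17.6% of all probe sets, and 9 lower, against 16.5%. Of the smooth muscle and pericyte markers 5 of 10 rose, with a median of 0.45 over the list, among them Cnn1 by 2.13 and Actg2 by 1.32. Other members of the list lay below 0 without a call. Mylk was at -0.39 and Cspg4 at -0.35, both without overlap, and Notch3 at -0.08 with overlap. The call of Col12a1 was lost when any of C7, C8, C9, KO10, KO11, KO12, C13, C15, KO17 or KO18 was left out of the fit, with adjusted p values from 0.0507 to 0.221. Without KO16 there were 5 calls, 2 higher and 3 lower. No share of all probe sets is given for that fit, so this count is not read as a result about the collagens.

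In the ScapΔ/Δ lungs 22 collagens rose from E18.5 to PN1 and none fell, against 17.5% of all probe sets called higher and 20.1% lower. By class 6 of 11 fibrillar, 4 of 8 basement membrane and 12 of 25 other genes passed. The median over the 44 genes was 0.30 against -0.03 over all probe sets, with 40 above 0. Col12a1 rose most, by 1.41 ± 0.20 (SE, limma adjusted p = 0.00225), a ratio of 2.65. Col4a4 rose by 0.86 ± 0.25 (adjusted p = 0.0266), Col4a3 by 0.79 ± 0.19 (adjusted p = 0.0155), Col5a2 by 0.67 ± 0.18 (adjusted p = 0.0217) and Col27a1 by 0.62 ± 0.16 (adjusted p = 0.0191). Col8a1 rose by 0.55, Col13a1 by 0.54, Col5a1 by 0.54 and Col4a2 by 0.52. Col1a1 at 0.70 ± 0.25 (adjusted p = 0.0508) and Col1a2 at 0.53 ± 0.20 (adjusted p = 0.0527) lay just outside the threshold, and just inside it were Col11a2 at 0.28 (adjusted p = 0.0451) and Col2a1 at 0.23 (adjusted p = 0.0447). Col14a1 was at -0.32 and Col6a1 at -0.01.

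These calls rest on KO17 and KO18. Without both, only Col12a1 passed, at 1.12 (adjusted p = 0.0379), the collagen median was 0.08, and 3.07% of all probe sets were called higher and 3.13% lower. Col4a3 was then at 0.36, Col4a4 at 0.19 and Col1a1 at 0.18. Leaving out KO17 alone left 3 calls, against 2.5% of all probe sets, leaving out KO18 alone left 2, against 2.93%, and without KO16 there were 33, against 32.1%. Leaving out KO11 or KO12 left 4 calls each, without a share of all probe sets to set beside them. A fit of the 6 arrays compared alone called none, with 17 at an unadjusted p under 0.05, all higher. With arrays centred the median over all probe sets moved from -0.03 to -0.20 and that of the collagens from 0.30 to 0.12, with 33 of 44 above 0. Whether the change across birth differed between genotypes is the same contrast as the difference between ages above, in which no collagen passed.

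**Figure D5:**
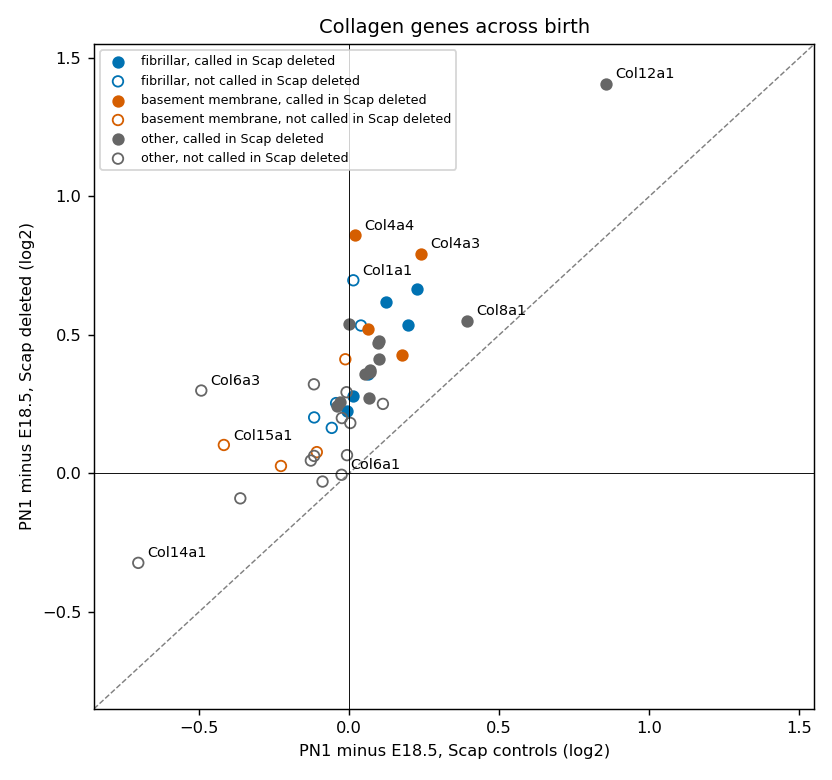
PN1 minus E18.5 (log2) in Scap controls (horizontal axis) and in ScapΔ/Δ lungs (vertical axis) for the 44 collagen genes, coloured by class and filled where the change in ScapΔ/Δ lungs passed the test; the dashed line marks equal values. All points lie above the line (39 of 44 with arrays centred), and Col12a1, at 0.85 and 1.41, and Col14a1, at -0.70 and -0.32, mark the ends of both axes.

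How closely the chains of one trimer followed each other over the arrays differed between types. Each gene was centred on its mean over the 18 arrays, and for a pair the largest gap on any array was taken. The median of this gap over all 946 pairs of collagen genes was 0.46, and over the 45 pairs of genes with a mean of 9 or more it was 0.57. For Col1a1 with Col1a2 it was 0.17, the smallest of those 45 pairs. Col4a1 with Col4a2 also gave 0.17 and Col6a1 with Col6a2 0.18, the next 2 of the 45. Among the others Col4a5 with Col4a6 gave 0.16 and Col5a1 with Col5a2 0.18. Over all 946 pairs these ranked 29 and 50, and Col1a1 with Col1a2 ranked 31. The gap is not scaled to the range of a gene, so genes that vary little give small gaps whether or not they are partners. Col4a3 with Col4a4 gave 0.30, on KO17. Other partners lay further apart than the median pair, namely Col6a1 with Col6a3, 0.81, on C14, and Col4a4 with Col4a5, 0.93, on KO17. Col4a1 with Col4a3, of different networks, gave 0.48, also on KO17. The widest of the pairs listed was Col12a1 with Col14a1, 1.15, on KO16. The pairs were chosen for their known partners, the arrays share their normalization, and no test was made.

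Genes that process, link or bind collagen were read from lists. Within the cell, prolyl and lysyl hydroxylases and chaperones prepare the chains, and outside it proteases trim them, lysyl oxidases cross-link them and small proteoglycans space the fibrils. At E18.5 no member of the 6 lists passed the test between genotypes. All 6 cross-linking genes were below 0 with a median of -0.22, among them Tgm2 at -0.28, Lox at -0.24 and Loxl1 and Loxl3 at -0.20, each without overlap. Of 9 collagen receptors 8 were below 0 (median -0.19), of 7 genes of propeptide cleavage 6 (median -0.13), and of 17 genes of chain modification and folding 10 (median -0.06). The lists of collagen breakdown and fibril organisation had members on both sides of 0. Ctsk at 0.30 and Mmp8 at 0.26 were higher and Mrc2 at -0.29 and Mmp9 at -0.22 lower, each without overlap. Fmod was at -0.43 without overlap, and Lum at 0.48 with overlap.

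At PN1 none of these passed between genotypes either. Of the 17 genes of chain modification and folding 15 were below 0 with a median of -0.24, and P4ha1, a prolyl hydroxylase, was at -0.47, Colgalt2 at -0.46 and Crtap at -0.24 without overlap. The mean of that list was 10.01 to 10.13 in controls, 10.12 on KO16, 9.69 on KO17 and 9.72 on KO18. Bright probe sets as a whole were lower too. The 10258 probe sets with a mean of 9 or more had a PN1 median of -0.18, with 71.45% below 0. The fall of the list lay near this background, so it is not read as an opposition to the collagens. Whether the list differed from bright probe sets was not tested. Without KO17 and KO18 the list of chain modification and folding had a median of 0.05 with 10 of 17 genes above 0. P4ha1 was then at -0.09, Colgalt2 at -0.21 and Crtap at -0.03. The fibril organisation list had a median of -0.36 with 5 of 8 genes below 0, among them Fmod at -0.72 and Dcn at -0.62. The protease Bmp1, which removes propeptides, was at 0.52 and its enhancers Pcolce2 and Pcolce at -0.72 and -0.43. Without KO17 and KO18 Fmod was at -0.17, Dcn at -0.36, Bmp1 at 0.11, Pcolce2 at -0.15 and Pcolce at -0.10, and the fibril organisation list had a median of -0.12. In the Insig line the medians of the 6 lists lay between -0.07 and 0.04, with 0 called.

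Across birth in controls Loxl1 rose by 0.73 (limma adjusted p = 0.00353) and Mmp9, a protease, by 0.76 (adjusted p = 0.00664), and no other gene of these lists passed. Across birth in ScapΔ/Δ lungs 17.5% of all probe sets were called higher and 20.1% lower. Of 17 genes of chain modification and folding 5 fell, among them P4ha1 by 0.93, Plod1 by 0.76 and P4ha2 by 0.62 on the log2 scale, and P4ha3 rose by 0.50. Of 8 fibril organisation genes Lum fell by 1.80, Ogn by 1.14 and Dcn by 0.86, while Tnxb rose by 0.54. Of 6 cross-linking genes Loxl1 and Loxl4 rose by 0.64 and 0.35. Of 9 genes of collagen breakdown 3 rose, among them Mmp9 by 1.04 and Timp1 by 0.91, and 2 fell, Mmp8 by 0.86 and Mmp2 by 0.52.

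Without KO17 and KO18, where 3.07% of all probe sets were called higher and 3.13% lower, none of the 5 fallen genes of chain modification and folding passed, with P4ha1 at -0.54 and Plod1 at -0.22, and 2 other genes of the list, Fkbp14 and P3h1, passed higher at 0.48 and 0.56. The fall of Lum, Ogn and Dcn passed there too, at -1.52, -0.57 and -0.60, as did the rise of Loxl1, Loxl4, Mmp9 and Timp1, at 0.83, 0.46, 0.92 and 1.67. P4ha3, Tnxb, Mmp8 and Mmp2 did not pass. With all arrays 6 of 10 smooth muscle and pericyte markers rose, and of 10 lung fibroblast markers 5 fell, among them Vegfd by 0.93 and Tcf21 by 0.72, while Gli1 rose by 0.99. Without KO17 and KO18 5 smooth muscle and pericyte markers rose and 3 fibroblast markers fell, and Gli1 was at 0.23 with no call. The part of such cells in the collagen values was not tested.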

How the data were processed

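RNA of 18 whole lungs, 3 in each of 6 groups, was hybridised by the authors to Affymetrix Mouse Gene 1.0 ST arrays, 1 array per lung. The deposited values are log2 expression per probe set, from 3.09 to 14.05 over all arrays. The summarization and normalization behind them are not given in the sources used here, and the array number limits precision. Probe sets were named through GEO's platform annotation, updated to RefSeq symbols, and only probe sets with 1 symbol were named (21789, against 1621 with several and 12146 with none).

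Groups came from the sample labels. The filter of the study's methods was kept, by which a probe set must reach the 35th percentile of an array on 66% of the arrays fitted or more. The rest was fitted with limma 3.58.1 (R 4.3.3), the 12 Scap arrays together (22800 probe sets) and the 6 Insig arrays apart (22775). P-values were adjusted over all probe sets (Benjamini-Hochberg), and a call is an adjusted p under 0.05. Differences carry their SE from the fit. The genotype, age and age-by-genotype comparisons of the Scap line share arrays. Nothing states whether lungs came from separate litters, so p-values measure the spread between these samples. Values on every array were given for the main chains of types I, II, III, IV, V, VI, IX, XI, XIII, XV, XVII and XVIII and, per comparison, for up to 8 called genes with the largest difference or, with no call, up to 8 without overlap. Of the other lists up to 4 genes were named, called or, with no call, without overlap of the groups, with 1 probe set per gene, the one with the highest mean. The members, lists and tests were chosen with earlier results of these data known, and the limit of 9 between levels after the values were seen. The fits were tested on simulated data. Alternatives were the filter, the scaling, the arrays fitted, a test without moderation (the methods name a t-test for the Insig line and an analysis over genotype and time for the Scap line) and the arrays left out. Promoters came from RefSeq (GRCm38.p6). Tables and plots were made in Python 3.11.15 with numpy 2.4.6, matplotlib 3.10.9 and pandas 2.3.3.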

Additional observations from a re-analysis of the deposited data

How the results depend on the processing

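The genotype comparisons of the collagens called 0 probe sets in every setting run except at PN1 without KO16, and their median differences ran from -0.21 to -0.15 at E18.5, 0.06 to 0.26 at PN1 and -0.12 to -0.02 in the Insig line when single arrays were left out. At PN1 the median was 0.10 after quantile normalization and -0.0044 with median centring. Without KO17 and KO18 together the median was -0.10 at PN1, 0.078 for the difference between ages and 0.084 across birth in ScapΔ/Δ lungs. Leaving out single arrays gave 0 to 27 calls at PN1, 0 to 33 for the difference between ages, 0 to 5 across birth in controls (medians from -0.027 to 0.037) and 2 to 33 across birth in ScapΔ/Δ lungs. The count of 1 across birth in controls became 0 without the filter, with median centring, with all 18 arrays in 1 fit and in an unmoderated test of the arrays compared, and 6 with limma in a fit of those arrays. The count of 22 in ScapΔ/Δ lungs became 11 with median centring, 0 in a fit of the arrays compared, with limma or unmoderated, and 1 without KO17 and KO18. The share of all probe sets called moved with the setting too. Across birth in ScapΔ/Δ lungs it was 2.5% higher without KO17 and 32.1% higher without KO16. The counts of this section stand without such shares and are not read as a property of the collagens. Over the alternatives, named genes across birth in ScapΔ/Δ lungs lost the call in 46 values, and Col12a1 in controls lost it in 15. The causes were not tested. No paired analysis was possible because the labels name no litter, although the controls were littermates. Signal limits 7 of the 46 probe sets, which lay below the median of their array throughout.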
